A study of Mus musculus with 12 samples.

Results

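The comparison described here set sorted brain endothelial cells labelled as an endothelial knockout of Ezh2 (Ezh2 ECKO) against wild-type cells (WT). It was chosen by sample title and used 6 of the 12 libraries of the series, 3 in each group, and was described across the 12577 of 21638 listed genes that had a mean count of at least 10 over all 12 libraries. Cells were CD31-positive, CD41-negative and CD45-negative cortical endothelial cells of adult mice. The labelled knockout mice carried Ezh2lox/lox with Cdh5CreERT2, a tamoxifen-dependent Cre recombinase driven from an endothelial cadherin promoter, and received tamoxifen at 75 mg/kg in 5 doses, 2 months before the brains were harvested. The labels do not give the alleles of the WT mice, whether these received tamoxifen, the strain, sex or exact age of any animal, or whether animals were pooled, so label, strain and treatment cannot be told apart. The remaining 6 libraries, labelled Hdac2 ECKO and beta-catenin GOF, entered the fit for its estimate of spread and are used below as further mutant groups that carried the same Cre and were given the same tamoxifen schedule.

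EZH2 is the catalytic subunit of Polycomb repressive complex 2 (PRC2), which methylates lysine 27 of histone H3 and keeps developmental genes silent. SUZ12 and EED are its other core subunits, EZH1 is a second methyltransferase that can take the place of EZH2, and PRC1 complexes act on the methylated chromatin. In resting endothelium, EZH2 is generally low, and it is expressed mainly in dividing cells.

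The targeted gene was examined first. Ezh2 (chromosome 6, 47530139 to 47595341, GRCm38) stood at 8.88, 2.69 and 8.69 CPM in WT replicates 1 to 3 and at 9.85, 5.19 and 11.7 CPM in Ezh2 ECKO-labelled replicates 1 to 3, where CPM is the count per 1000000 of the TMM-scaled library total. The groups overlapped, and no labelled library was near 0. The mean was 6.75 ± 3.52 CPM in WT and 8.92 ± 3.36 CPM in the labelled libraries (SD, n = 3 each), a log2 fold change of 0.40 (SE 0.46) that missed the threshold (edgeR adjusted p = 0.61), and 0.02 without WT replicate 2. The whole-gene RNA level was thus not lower in the libraries labelled as the knockout. Counts cover the whole gene and the labels do not name the floxed exons, so loss of single exons was not tested, and the libraries are called Ezh2 ECKO-labelled throughout.

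None of the 11 PRC2 genes passed the threshold: 6 had a positive and 5 a negative log2 fold change, with a median of 0.40 against 0.05 over all genes tested. Without WT replicate 2 that median was 0.02. At an unadjusted p below 0.05 there were 2 higher and 2 lower, DESeq2 called 1 in each direction and limma on log2(CPM + 1) called 0. Over all genes these shares were 24.7% at an unadjusted p below 0.05, 10.2% by DESeq2 and 2.77% by limma, against which the counts of each list below are to be read. Among core subunits, Suz12 had a log2 fold change of 0.56 (edgeR adjusted p = 0.22), Eed one of −0.13 (edgeR adjusted p = 0.76) and Ezh1 one of −0.28 (edgeR adjusted p = 0.52). Rbbp4, which encodes a histone-binding subunit shared with other chromatin complexes, stood at 133, 129 and 83.5 CPM in WT and 71.5, 44.7 and 57.6 CPM in the labelled libraries. Its groups did not overlap, but its log2 fold change of −0.99 missed the threshold (edgeR adjusted p = 0.071). The groups of Aebp2, a cofactor of PRC2 on DNA, also did not overlap, at 18.4 to 29.3 CPM in WT and 34.6 to 48.1 CPM in the labelled libraries (log2 fold change 0.78, edgeR adjusted p = 0.11). Jarid2, Mtf2, Phf1, Phf19 and Rbbp7 had log2 fold changes of 0.91, 0.40, 0.59, −0.42 and −0.56, with overlapping groups.

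Among the 6 libraries, the deposited totals ranged from 26194646 to 33124642 counts and genes above 0 from 13922 to 16026. Log2(CPM + 1) profiles correlated across genes with r from 0.958 to 0.975 within WT, 0.939 to 0.97 within the labelled group and 0.906 to 0.964 between groups. On the first principal component of the 6 libraries (49.6% of the variance), WT replicate 3 and labelled replicate 2 lay next to each other at −9.76 and −3.58, between WT replicates 1 and 2 at −52.1 and −41.8 and labelled replicates 3 and 1 at 49.6 and 57.6. Labelled replicate 2 stood apart on the second (20.8%), at −55.7 against −9.72 to 20.6 for the others. Among endothelial markers, the groups overlapped in summed level (17205 to 22762 CPM in WT, 15768 to 22091 CPM in the labelled libraries) and 0 of 12 passed the edgeR threshold (5 at an unadjusted p below 0.05, 1 by DESeq2 and 1 by limma).

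In all, 129 genes passed an edgeR adjusted p of 0.05, which is 1.03% of those tested. Of these, 43 were higher (0.342%) and 86 lower (0.684%) in the Ezh2 ECKO-labelled libraries. At an unadjusted p below 0.05 there were 3111 genes. The values of the groups did not overlap for 2761 genes (22%), 1390 of them higher (11.1%) and 1371 lower (10.9%). The count of calls rested on single libraries: it was 2 without WT replicate 1, 2 without WT replicate 2, 4 without labelled replicate 1 and 7 without labelled replicate 3, but 1143 without WT replicate 3 and 2329 without labelled replicate 2. Of the 129 genes, 122 passed in exactly 2 of these 6 fits, those without WT replicate 3 or labelled replicate 2. The plot of level against fold change shows where the called genes lie.

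**Figure D1:**
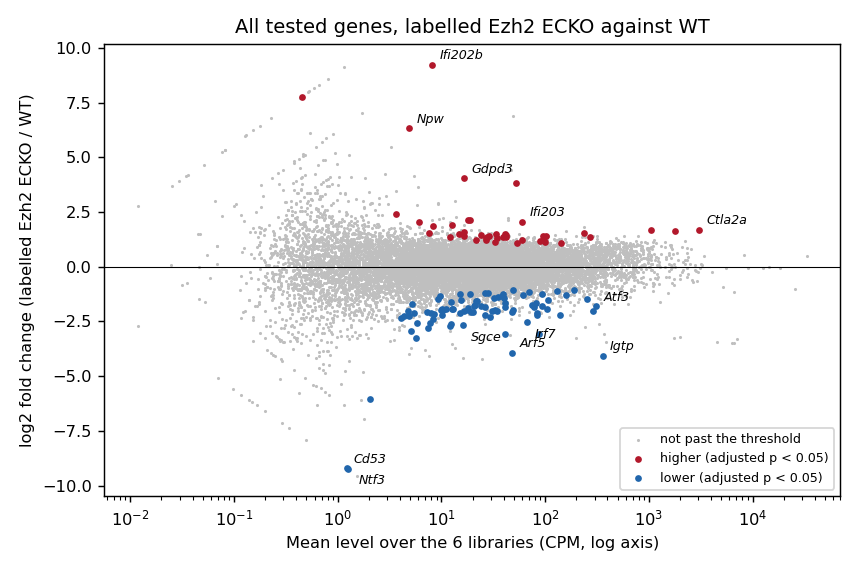
Mean level over the 6 libraries (CPM, log axis) against log2 fold change of the Ezh2 ECKO-labelled libraries over WT, 1 point per gene for the 12577 genes tested. Red points mark the 43 genes higher and blue points the 86 genes lower at an edgeR adjusted p below 0.05. Ifi202b is the called gene with the highest fold change, and the folds of genes with a group at 0 (such as Ntf3 and Cd53) are fitted values that depend on the prior count.

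Only 2 genes passed in the fit of all libraries and in each of the 6 fits without 1 library, Ifi202b and Sgce. Ifi202b (chromosome 1, 173962568 to 173982744) encodes an interferon-inducible protein of the Ifi200 family of DNA sensors and their regulators, and its expression is known to differ between inbred mouse strains. It stood at 0.0694, 0 and 0 CPM in WT and at 15.8, 20.2 and 12.7 CPM in the labelled libraries. It was close to absent in all WT libraries and present in every labelled one. The summed counts were 2 in WT and 1354 in the labelled libraries, a ratio of 712. The 95% exact interval of 197 to 5888 covers counting error only and takes counts as independent. It is too narrow where both mates of a pair were counted. The edgeR adjusted p was 0.000442 (fitted log2 fold change 9.24, SE 0.92). In the other 6 mutant libraries its highest level was 0.139 CPM.

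Sgce (chromosome 6, 4674350 to 4747207) encodes epsilon-sarcoglycan and is an imprinted gene expressed from the paternal copy. It stood at 31.4, 28.0 and 25.1 CPM in WT and at 2.43, 4.72 and 6.11 CPM in the labelled libraries. Every labelled library was below every WT library, and also below the other mutant libraries, which ran from 15.7 to 24 CPM. Its log2 fold change was −2.67 (SE 0.33, edgeR adjusted p = 0.00455). It ran from −3.00 to −2.40 in the fits without 1 library.

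The next genes are further large rises. Npw (chromosome 17, 24657330 to 24658457), the precursor of neuropeptide W, was at 0, 0 and 0.356 CPM in WT and 10.3, 10.9 and 7.90 CPM in the labelled libraries, where all values were high (log2 fold change 6.34, SE 0.91, edgeR adjusted p = 0.0167). Without WT replicate 3 every WT value is 0 and the fitted value is 11.2, and the call was lost without WT replicate 1 (edgeR adjusted p = 0.0775) and without WT replicate 2 (edgeR adjusted p = 0.0514). The same gene was at 5.87 to 14.6 CPM in the Hdac2 ECKO libraries and at 0.106 to 0.205 CPM in the beta-catenin GOF libraries, so it was also high in the Hdac2 ECKO libraries. Gdpd3 (chromosome 7, 126766334 to 126775649), a phospholipase D-like enzyme acting on lysophospholipids, was at 1.67, 0.760 and 3.28 CPM in WT and 19.7, 60.0 and 14.7 CPM in the labelled libraries, with replicate 2 the highest (log2 fold change 4.05, SE 0.62, edgeR adjusted p = 0.0192). The call was lost without WT replicate 1 or WT replicate 2. Aldh1a1 (chromosome 19, 20492715 to 20643465), a retinaldehyde dehydrogenase that makes retinoic acid, was at 5.69, 6.84 and 7.83 CPM in WT and 30.9, 32.0 and 26.3 CPM in the labelled libraries, a tight separation (log2 fold change 2.13, SE 0.40, edgeR adjusted p = 0.0448).

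Doc2g (chromosome 19, 4003313 to 4007005), a relative of the calcium-sensing Doc2 proteins, had no count in WT and 0.778, 0.315 and 1.62 CPM in the labelled libraries. The labelled mean was 8.86-fold above a floor of 3 counts per WT library. It is a low gene, and the other mutant libraries held 0.211 to 1.44 CPM. Pld1 (chromosome 3, 27938695 to 28133362), a phospholipase that makes phosphatidic acid, rose from 2.40 ± 0.501 to 9.89 ± 1.59 CPM (SD, n = 3 each). Pdk1 (chromosome 2, 71873224 to 71903858), a kinase that restrains pyruvate dehydrogenase, rose from 5.41 ± 0.422 to 20.1 ± 9.00 CPM, with labelled replicate 3 at 30.4 CPM and the other two at 13.7 and 16.1 CPM. Ttf2, a transcription termination factor, rose from 1.15 ± 0.583 to 6.19 ± 1.89 CPM. Zswim4, a zinc-finger protein, rose from 6.89 ± 1.69 to 30.7 ± 8.98 CPM, and Zfp12, another zinc-finger protein, from 3.64 ± 1.17 to 13.1 ± 1.36 CPM. For all 6 of these genes the groups did not overlap and the edgeR adjusted p lay between 0.0435 and 0.0478. Each of the 6 is among the 122 genes that passed in 2 of the fits without 1 library.

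Among abundant genes that rose, Ctla2a (chromosome 13, 60934155 to 60936625), a cysteine protease inhibitor, was at 1406, 1123 and 1841 CPM in WT and 2748, 7458 and 3879 CPM in the labelled libraries. Labelled replicate 2 was far above the rest, and the groups did not overlap (log2 fold change 1.69, SE 0.37, edgeR adjusted p = 0.0478). The predicted genes Gm49391 and Gm49393, with log2 fold changes of 1.63 and 1.69, overlap Ctla2a on the same strand, so these calls may count the same reads. Hmcn1 (chromosome 1, 150562524 to 150993435), an extracellular matrix protein, was at 83.4, 119 and 163 CPM in WT and 425, 225 and 412 CPM in the labelled libraries (log2 fold change 1.54, SE 0.32, edgeR adjusted p = 0.0468). Dynlt1a, a dynein light chain on chromosome 17, rose from 154 ± 32.0 to 392 ± 53.8 CPM. It overlaps Tmem181a on the opposite strand.

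**Figure D2:**
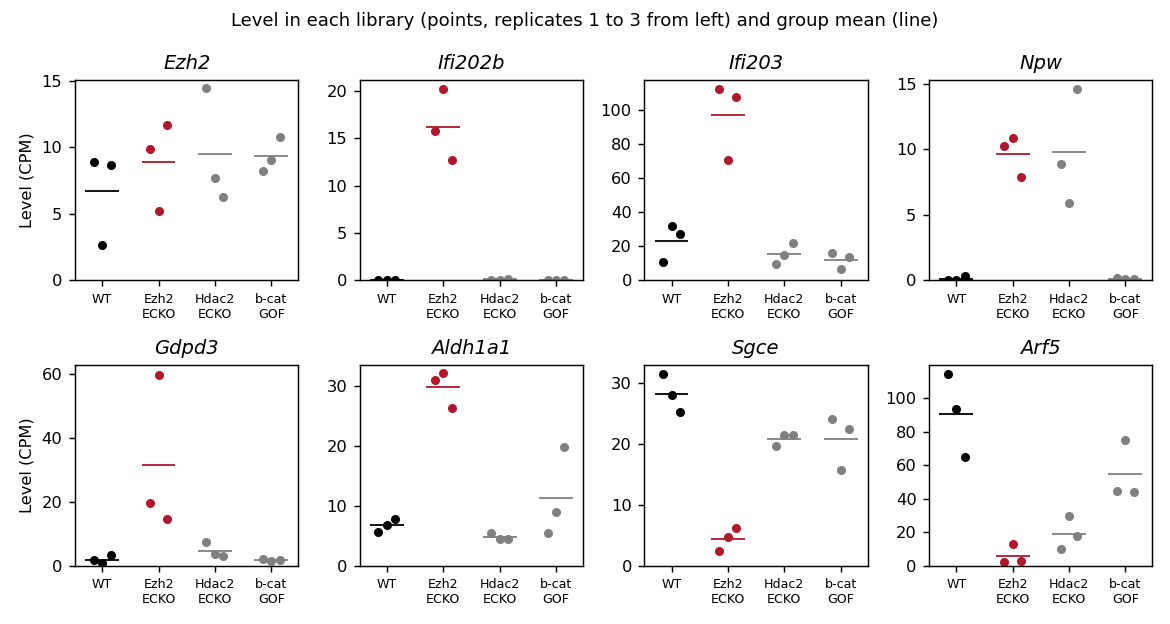
Level (CPM, linear axes from 0) of Ezh2 and 7 called genes in all 12 libraries, with points for replicates 1 to 3 from left to right in each group and a line at the group mean. Black is WT, red is Ezh2 ECKO-labelled and grey are the Hdac2 ECKO and beta-catenin GOF groups. Ifi202b is at most 0.139 CPM outside the red group, and Ezh2 overlaps between all groups.

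Further large falls follow, by single gene. Arf5 (chromosome 6, 28423560 to 28426602), a small GTPase of Golgi and endosome traffic, was at 114, 93.4 and 64.7 CPM in WT and at 2.33, 13.0 and 2.59 CPM in the labelled libraries, all far below WT (log2 fold change −3.93, SE 0.61, edgeR adjusted p = 0.0192). It also ran from 9.85 to 75.0 CPM in the other mutant libraries, and it overlaps Gcc1 on the opposite strand. Ppp1r15a (chromosome 7, 45522916 to 45526268), the stress-induced phosphatase subunit GADD34, was at 311, 120 and 33.9 CPM in WT and 20, 17.0 and 18.7 CPM in the labelled libraries, with WT replicates spread widely and labelled ones close together (log2 fold change −3.06, SE 0.58, edgeR adjusted p = 0.0448). It overlaps Tulp2 on the opposite strand. Cd82 (chromosome 2, 93419111 to 93463140), a tetraspanin, fell from 9.14 ± 2.02 to 1.18 ± 0.639 CPM, and Pde8b (chromosome 13, 95024454 to 95250336), a cyclic AMP phosphodiesterase, from 10.3 ± 8.50 to 1.08 ± 0.635 CPM, with WT replicate 3 at 20.1 CPM. Pde8b passed in 1 of the 6 fits without 1 library, that without labelled replicate 2. Its log2 fold change was −2.31 without WT replicate 3 (edgeR adjusted p = 0.0544), and the other fits reached at most an edgeR adjusted p = 0.161, without labelled replicate 1. Slfn2 (chromosome 11, 83065112 to 83070678), an interferon-inducible regulator of T-cell quiescence, fell from 73.2 ± 45.2 to 8.66 ± 3.78 CPM. Scamp4, a secretory carrier membrane protein, fell from 21.0 ± 11.4 to 3.21 ± 0.457 CPM. It overlaps Adat3 and Gm49322 on the same strand, so their counts may share reads.

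Some of the largest fitted falls belong to genes near the floor. Ntf3 (chromosome 6, 126101412 to 126166910), which encodes neurotrophin-3, was at 0.902, 4.69 and 1.99 CPM in WT and had no count in any labelled library. The WT mean was 23.5-fold above a floor of 3 counts per labelled library. Cd53 (chromosome 3, 106759921 to 106790149), a leukocyte tetraspanin, was at 2.08, 2.41 and 2.85 CPM in WT and had no count in any labelled library. Its WT mean was 22.7-fold above the same floor. The other 6 mutant libraries also had no count of Cd53, and held 0.407 to 5.53 CPM of Ntf3. Serpina3g, a serine protease inhibitor induced by interferon, was at 2.29, 9.59 and 0.285 CPM in WT and 0.130, 0.0394 and 0 CPM in the labelled libraries (log2 fold change −6.03, SE 1.35, edgeR adjusted p = 0.0478). Among abundant genes, Tpm3, a tropomyosin, fell from 370 ± 176 to 134 ± 9.89 CPM and Tax1bp1, an autophagy receptor, from 258 ± 60.4 to 125 ± 5.38 CPM. Hdac1, which encodes a histone deacetylase found in many repressor complexes and was named after its values were seen, fell from 115, 89.2 and 56.6 CPM to 35.6, 38.0 and 31.5 CPM (edgeR adjusted p = 0.0478).

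By position, 11 of the 86 lower genes lay on chromosome 6, where Ezh2 itself lies, and 0 of the 43 higher ones did. They were Sgce, Arf5, Bpgm, Gimap4, Tax1bp1, Anxa4, Lmcd1, Rad18, Usp18, Spsb2 and Ntf3, listed after the count was seen. Chromosome 6 held 602 tested genes, of which 1.83% were called, all of them lower, against 0.684% lower over all genes. With both directions together, the shares were similar on chromosomes 19 (1.81%), 10 (1.65%) and 13 (1.61%), against 1.03% of all genes. The lower calls alone were 5 of 443, 7 of 607 and 3 of 496 tested genes on these 3. The count is a description with no test.

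A set of interferon-inducible genes fell in the labelled libraries, and their fold changes were smaller without WT replicate 2. Type I and type II interferons switch on antiviral effectors through STAT and IRF factors, the immunity-related and guanylate-binding GTPases that attack intracellular pathogens, and the machinery of antigen presentation. Of 31 interferon-stimulated genes tested, 5 fell and 0 rose, where 0.684% of all genes fell and 0.342% rose, with a median log2 fold change of −0.66 against 0.05 over all genes, or −0.24 without WT replicate 2. The 5 were Irf7, Ifit3, Ifit3b, Oasl2 and Usp18. Of 22 interferon-inducible GTPases 1 fell (0.684% of all genes), Igtp, while all 22 had a negative log2 fold change and the values of 9 did not overlap between groups (10.9% of all genes were lower without overlap). Their median of −2.62 shrank to −0.48 without WT replicate 2. Of 22 genes of MHC class I presentation 1 also fell, the transcription factor Irf1 (median −0.83, or −0.35 without WT replicate 2), and of 7 of MHC class II presentation 0 passed, with a median of −3.70, or −2.29 without WT replicate 2. Of these 7, 5 were lower at an unadjusted p below 0.05, 3 by limma and 1 by DESeq2. By the same unadjusted p, 15 interferon-stimulated genes, 16 GTPases and 13 MHC class I genes were lower (11.8% of all genes) and 0 higher. DESeq2 called 9, 6 and 7 of them lower (5.26% of all genes) and limma 6, 0 and 2 (1.73%).

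Igtp (chromosome 11, 58199556 to 58207591), which encodes the GTPase IRGM3, was at 70.0, 1866 and 92.6 CPM in WT and at 35.5, 40.1 and 45.8 CPM in the labelled libraries. Only WT replicate 2 was high, yet all WT values were above all labelled ones. Its log2 fold change was −4.06 (SE 0.91, edgeR adjusted p = 0.0478), and −1.01 without WT replicate 2. It overlaps Irgm2 on the same strand. Irgm1, Gbp2 and Iigp1, further GTPases of the list, showed the same single high library, at 1695, 1030 and 1894 CPM in WT replicate 2 against at most 157 CPM in any other of the 6 libraries, and did not pass (edgeR adjusted p = 0.055, 0.056 and 0.061).

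Irf7 (chromosome 7, 141262706 to 141266481), the master factor of type I interferon induction, was at 114, 184 and 47.0 CPM in WT and at 16.2, 28.9 and 15.1 CPM in the labelled libraries, without overlap (log2 fold change −2.52, SE 0.43, edgeR adjusted p = 0.036). Without WT replicate 2 it was −2. Irf7 overlaps Phrf1 on the opposite strand. Irf1 (chromosome 11, 53770014 to 53778374), which drives MHC class I and GTPase genes, was at 137, 228 and 50.9 CPM in WT and 32.1, 24.6 and 32.1 CPM in the labelled libraries (log2 fold change −2.23, SE 0.40, edgeR adjusted p = 0.0435). Without WT replicate 2 it was −1.67. Ifit3 (chromosome 19, 34583531 to 34588731) and its neighbour Ifit3b (34607970 to 34613401), tetratricopeptide antiviral proteins, are near-identical copies whose reads may be shared. Ifit3 was at 310, 870 and 226 CPM in WT and 140, 75.1 and 127 CPM in the labelled libraries, with a log2 fold change of −2.04, or −1.23 without WT replicate 2, and Ifit3b had −1.94 and −1.18. Oasl2, an antiviral protein of the 2′-5′ oligoadenylate synthetase family, was at 141, 229 and 66.8 CPM in WT and 37.8, 35.2 and 52.7 CPM in the labelled libraries. Usp18, which removes ISG15 and limits interferon signalling, fell from 131 ± 46.9 to 54.7 ± 9.72 CPM. Socs1 (chromosome 16, 10782240 to 10785536), the feedback inhibitor of JAK kinases, was at 15.5, 16.8 and 6.91 CPM in WT and 0.908, 3.23 and 1.44 CPM in the labelled libraries (log2 fold change −2.82, SE 0.55, edgeR adjusted p = 0.0448). Irf7 and Socs1 were also below every WT value in all of the Hdac2 ECKO and beta-catenin GOF libraries, so their falls were not particular to the Ezh2 ECKO-labelled group.

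**Figure D3:**
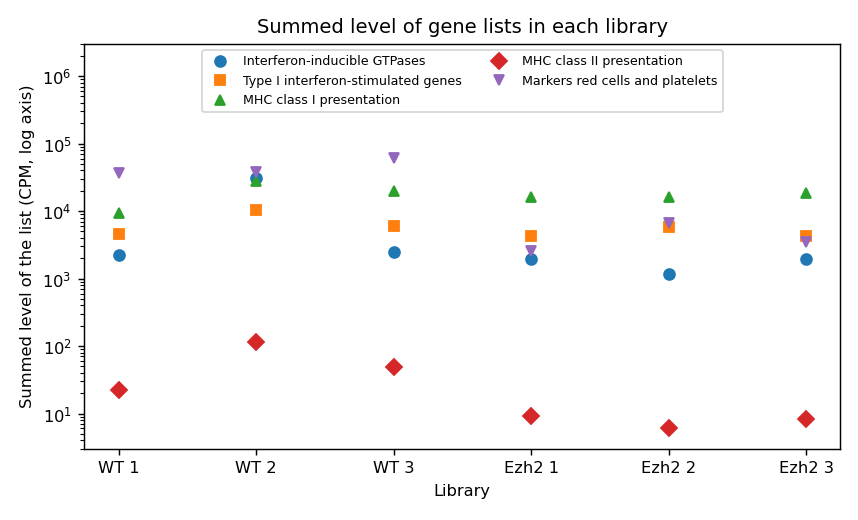
Summed level (CPM, log axis) of 4 interferon and antigen-presentation gene lists and of the red cell and platelet markers in each of the 6 libraries. The GTPase list reaches 31447 CPM in WT replicate 2 and 1167 to 2456 CPM in the other 5 libraries, while the red cell and platelet list is at 36152 CPM or more in each WT library and at 6716 CPM or less in each labelled one.

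The interferon-stimulated response element is read by IRF and ISGF3 factors, and its core was searched as TTTCNNTTTC, or GAAANNGAAA on the other strand, in RefSeq promoters (GRCm38.p6) from 250 bases before to 50 after the start. Overlapping matches were counted apart. Of the 12576 tested symbols, 9825 had an entry, and 379 of these (3.86%) held a match in any of their promoters. Because many genes had no entry, among them 9 of the 22 GTPases, sets of genes are not compared by this share. A match is a description of letters and not of binding. Among the lower genes, Irf7, Irf1, Oasl2 and Usp18 held no match or had no entry. Apol10b, Ifit3b, Ppp1r15a and Rbm43, also lower, held a match and are not shown. The promoters of 4 called genes that hold a match were picked to set some lower interferon genes beside a higher one. They are shown 5′ to 3′ on the gene's strand, with the matched letters in capitals.
Ifit3, lower, chr19:34583279-34583578, plus strand: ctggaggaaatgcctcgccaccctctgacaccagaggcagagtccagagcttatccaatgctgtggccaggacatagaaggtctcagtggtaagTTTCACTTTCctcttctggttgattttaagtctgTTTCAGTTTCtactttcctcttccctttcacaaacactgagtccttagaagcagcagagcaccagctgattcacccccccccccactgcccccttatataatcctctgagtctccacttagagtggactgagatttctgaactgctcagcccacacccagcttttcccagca
Igtp, lower, chr11:58199306-58199605, plus strand: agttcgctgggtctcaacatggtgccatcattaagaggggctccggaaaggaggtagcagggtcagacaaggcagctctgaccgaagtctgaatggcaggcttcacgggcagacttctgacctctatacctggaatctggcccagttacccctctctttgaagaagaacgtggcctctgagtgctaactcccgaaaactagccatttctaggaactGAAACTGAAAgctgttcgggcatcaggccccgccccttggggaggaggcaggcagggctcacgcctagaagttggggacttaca
Socs1, lower, chr16:10785487-10785786, minus strand: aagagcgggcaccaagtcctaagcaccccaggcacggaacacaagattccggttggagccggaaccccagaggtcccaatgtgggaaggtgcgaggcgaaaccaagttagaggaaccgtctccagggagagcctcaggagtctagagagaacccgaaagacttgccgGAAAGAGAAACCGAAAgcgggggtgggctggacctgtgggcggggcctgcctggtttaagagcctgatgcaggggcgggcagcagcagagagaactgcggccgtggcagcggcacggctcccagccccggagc
Ifi203, higher, chr1:173942443-173942742, minus strand: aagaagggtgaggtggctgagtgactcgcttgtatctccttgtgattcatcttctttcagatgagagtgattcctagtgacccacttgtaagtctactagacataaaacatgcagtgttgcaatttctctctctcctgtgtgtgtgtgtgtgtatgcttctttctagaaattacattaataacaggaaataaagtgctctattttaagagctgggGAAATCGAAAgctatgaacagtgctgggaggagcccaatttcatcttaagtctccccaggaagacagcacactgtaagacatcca

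Ifit3 held 2 separate matches within a short stretch and Socs1 a pair of overlapping ones, while Igtp and Ifi203 held 1 each. Ifi203 (chromosome 1, 173920407 to 173942672), a further Ifi200 gene, moved the other way from the remaining matches: it was at 10.6, 31.7 and 27.3 CPM in WT and at 112, 70.2 and 107 CPM in the labelled libraries, without overlap (log2 fold change 2.06, SE 0.43, edgeR adjusted p = 0.0463). It lies next to Ifi202b in the Ifi200 cluster and overlaps Mndal on the same strand. Of 9 Ifi200 genes tested 2 rose past the edgeR threshold (0.342% of all genes), Ifi202b and Ifi203, and 0 fell, with a median of −0.05. At an unadjusted p below 0.05, 2 were higher and 2 lower (12.9% and 11.8% of all genes). DESeq2 called 2 higher and 1 lower (4.91% and 5.26%), and limma 2 higher and 1 lower (1.04% and 1.73%). Mndal itself was at 39.5, 61.1 and 59.5 CPM in WT and 33.8, 28.3 and 92.1 CPM in the labelled libraries, and neither it nor Aim2 (log2 fold change −1.56, edgeR adjusted p = 0.16), a sensor of cytosolic DNA, passed the threshold. The direction of the list's median turned with library size scaling (0.04) and after the length trend was removed (0.12).

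No tested member of the Polycomb-repressed genes passed the threshold. Of 70 homeobox and other developmental factors known as Polycomb-repressed, 11 had enough counts to be tested, 0 of them passed, and their median log2 fold change was −0.35 (5 positive, 6 negative), with a range from −0.64 to 0.32 in the fits without 1 library. At an unadjusted p below 0.05, 1 was higher and 2 lower, and neither DESeq2 nor limma called any. Another 11 of the 70, among them Hoxb4, Nkx2-5 and Gata4, had no count in any of the 6 libraries. Gata6, an endoderm and cardiac factor, was at 0.972, 1.08 and 1.71 CPM in WT and 0.0972, 0 and 0.108 CPM in the labelled libraries (edgeR adjusted p = 0.16), and Tbx3, a limb and heart factor, at 32.6, 32.9 and 43.9 CPM and 80.6, 43.3 and 60.9 CPM (edgeR adjusted p = 0.13). Of 7 tested inhibitors of cyclin-dependent kinases, among them classic Polycomb targets, 0 passed (median −0.46), with 1 lower at an unadjusted p below 0.05 and 0 by DESeq2 or limma. Of 21 proliferation genes 0 passed, also at an unadjusted p below 0.05 and by DESeq2 or limma, with a median of −0.09 (−0.11 to 0.15 without 1 library): Pcna, the replication clamp, was at 138 to 154 CPM in WT and 173 to 229 CPM in the labelled libraries (edgeR adjusted p = 0.22).

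Lists of other chromatin regulators were examined next. Of 21 PRC1 subunits 0 passed (median 0.16), with 2 at an unadjusted p below 0.05, 1 by DESeq2 and 0 by limma. Bmi1, a PRC1 ring-finger subunit, had a log2 fold change of 1.05 (edgeR adjusted p = 0.089) and Cbx8, a reader of the methyl mark, one of −1.23 (edgeR adjusted p = 0.20). Of 15 H3K27 demethylases and Trithorax genes, which oppose Polycomb, 0 passed (median 0.25), although their summed level did not overlap between groups, at 533 to 926 CPM in WT and 1079 to 1326 CPM in the labelled libraries. At an unadjusted p below 0.05, 6 were higher and 1 lower (12.9% and 11.8% of all genes), with 2 higher by DESeq2 (4.91%) and 0 by limma. Kmt2a, a methyltransferase for lysine 4 of histone H3, was at 18.3, 28.5 and 36.4 CPM in WT and 63.5, 36.2 and 69.8 CPM in the labelled libraries (log2 fold change 1.03, edgeR adjusted p = 0.079).

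Among genes of the blood-brain barrier, 1 of 21 tight junction and transcytosis genes fell (0.684% of all genes) and 0 rose (median −0.20, or 0.06 after the length trend was removed). At an unadjusted p below 0.05, 3 were higher and 6 lower (12.9% and 11.8% of all genes). DESeq2 called 3 lower (5.26%) and limma 2 lower (1.73%), and neither called any higher. The gene that fell was Marveld2 (chromosome 13, 100595957 to 100616971), which encodes the tricellular junction protein tricellulin, at 19.5, 25.3 and 24 CPM in WT and 7.39, 6.81 and 10.1 CPM in the labelled libraries (log2 fold change −1.50, SE 0.30, edgeR adjusted p = 0.0448). Cldn5, the main claudin of brain endothelium, was at 1172, 1893 and 1407 CPM in WT and 496, 1174 and 389 CPM in the labelled libraries, with overlap at labelled replicate 2 (log2 fold change −1.12, edgeR adjusted p = 0.14). In this list 4 genes were lower and 2 higher without overlap (10.9% and 11.1% of all genes). The lower ones included Plvap (log2 fold change −3.70, edgeR adjusted p = 0.071) and F11r (−1.10, edgeR adjusted p = 0.056). The higher ones were Cgnl1 (0.65, edgeR adjusted p = 0.11) and Mfsd2a (0.48, edgeR adjusted p = 0.29). Of 28 barrier transporters 0 passed (22 positive, median 0.26), with 6 higher and 1 lower at an unadjusted p below 0.05 (12.9% and 11.8% of all genes), 5 higher by DESeq2 (4.91%) and 0 by limma. The cholesterol exporter Abca1 was at 22.2 to 30.6 CPM in WT and 53.6 to 60.6 CPM in the labelled libraries (log2 fold change 1.10, edgeR adjusted p = 0.072), and the insulin receptor gene Insr had 0.92 (edgeR adjusted p = 0.073).

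Of 36 angiogenic and tip-cell genes 0 passed and 7 did not overlap, all of them higher in the labelled libraries, against 11.1% of all genes. At an unadjusted p below 0.05, 7 were higher and 2 lower (12.9% and 11.8% of all genes), with 3 higher and 1 lower by DESeq2 (4.91% and 5.26%) and 0 by limma. The netrin receptor gene Unc5b was at 11.0, 19.9 and 15 CPM in WT and 27.6, 25.5 and 37.2 CPM in the labelled libraries (log2 fold change 0.98, edgeR adjusted p = 0.079), and Nid1, a basement membrane linker, at 14.2 to 20.2 CPM and 22.6 to 47.2 CPM (0.94, edgeR adjusted p = 0.091). Cd34, a sialomucin of tip cells, had the opposite sign (−1.08, edgeR adjusted p = 0.077). Of 22 beta-catenin response genes 1 rose (0.342% of all genes), Ctla2a, and 0 fell (19 positive, median 0.41). The summed level of the 25 listed genes in the table was 2404 to 3272 CPM in WT and 4852 to 8721 CPM in the labelled libraries, and Ctla2a alone made up 7458 CPM of the 8721 CPM in labelled replicate 2. Of 18 arterial genes (median 0.06), 18 venous genes (median 0.12) and 10 flow-responsive genes (median 0.29), 0 passed, with 8, 4 and 3 at an unadjusted p below 0.05, 4, 2 and 2 by DESeq2 and 0, 0 and 1 by limma. The direction of the arterial and venous medians turned in fits without 1 library. The arterial genes Alpl, an alkaline phosphatase, and Notch4, a Notch receptor, stood at log2 fold changes of −1.41 and 1.00 (edgeR adjusted p = 0.060 and 0.078), and Thbd, the anticoagulant receptor thrombomodulin, at 1.01 (edgeR adjusted p = 0.063).

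**Figure D4:**
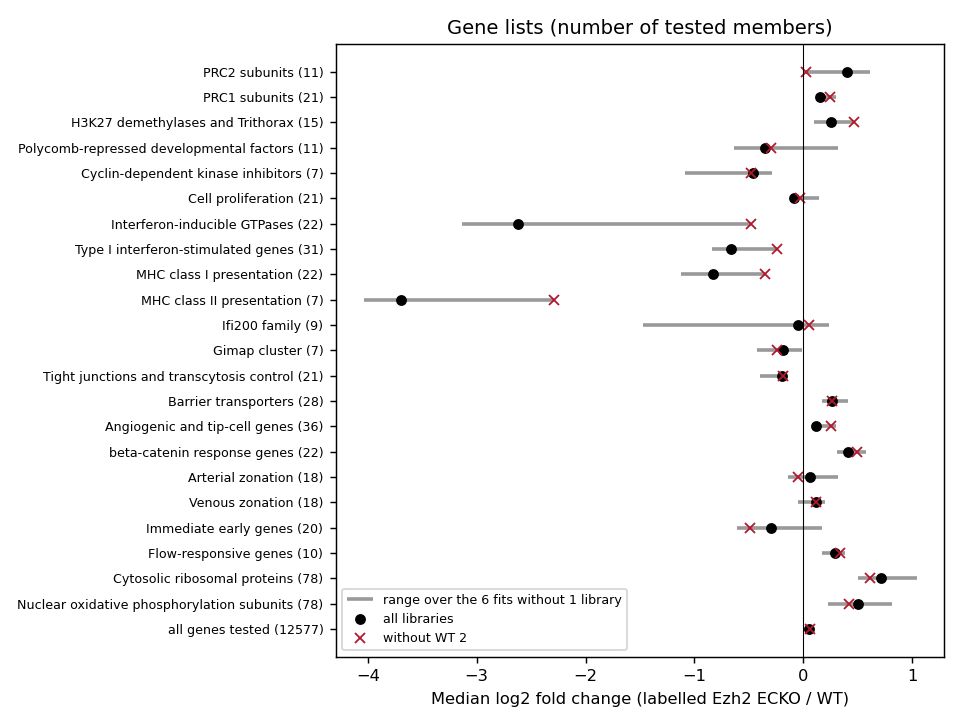
Median log2 fold change of the tested members of each gene list other than the cell markers (black points, all libraries), the range over the 6 fits without 1 library (grey bars) and the value without WT replicate 2 (red crosses). Of the lists drawn, the MHC class II list (−3.70) and the GTPase list (−2.62) have the lowest medians, and the GTPase list moves from −2.62 to −0.48 without WT replicate 2.

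Of 20 immediate early genes 1 fell (0.684% of all genes), Atf3, and 0 rose (median −0.30, or 0.17 in the fit at the upper end of those without 1 library). At an unadjusted p below 0.05, 7 were lower (11.8% of all genes) and 0 higher (12.9%), with 6 lower by DESeq2 (5.26%) and 1 lower by limma (1.73%). Atf3 (chromosome 1, 191170296 to 191218039), a stress-induced bZIP factor, was at 831, 380 and 246 CPM in WT and 122, 198 and 95.6 CPM in the labelled libraries (log2 fold change −1.81, SE 0.41, edgeR adjusted p = 0.0478). WT replicate 1 was the highest, and it also held the highest summed level of the list, 13030 CPM against 4637 to 6513 CPM elsewhere. Without it the log2 fold change was −1.18. Of 7 Gimap GTPases, which support lymphocyte survival and lie near Ezh2 on chromosome 6, Gimap4 fell from 21.3 ± 3.54 to 8.96 ± 0.736 CPM and 0 rose (median −0.19, or 0.02 after the length trend was removed). Of the 7, 1 was higher and 2 lower at an unadjusted p below 0.05, with 1 in each direction by DESeq2 and 1 lower by limma. Of 78 cytosolic ribosomal protein genes and 78 nuclear genes for oxidative phosphorylation 0 passed, with medians of 0.71 (71 positive) and 0.50 (56 positive). At an unadjusted p below 0.05, 43 and 33 were higher and 2 and 7 lower, DESeq2 called 21 and 17 higher and 0 and 2 lower, and limma 2 and 0 higher. Over all genes, 12.9% were higher and 11.8% lower at an unadjusted p below 0.05, and 4.91% higher and 5.26% lower by DESeq2.

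Markers of other cells were summed over all listed genes in the table, whether tested or not. The 11 markers of red cells and platelets summed to 36152, 38274 and 61422 CPM in WT and 2533, 6716 and 3507 CPM in the labelled libraries. Of the 10 tested, 0 passed the edgeR threshold, against 6 lower at an unadjusted p below 0.05 (11.8% of all genes), 4 lower by DESeq2 (5.26%) and 2 lower by limma (1.73%). The values of 6 did not overlap and were lower (10.9% of all genes), among them the haemoglobin genes Hba-a2 and Hbb-bs (log2 fold changes −3.48 and −3.50, edgeR adjusted p = 0.12 for each). The platelet genes overlapped between groups, with Itga2b at 0.82, Gp1bb at 0.39, Pf4 at 0.35 and Ppbp at −1.13. In sorted bulk RNA, fewer cells of a type and less RNA per cell cannot be told apart. Leukocyte markers summed to 20.6 to 34.3 CPM in WT and to 5.22, 158 and 9.27 CPM in the labelled libraries. Cd3e and Cd4 were at 0 in all 6, and 1 of 8 tested, Cd53, fell (0.684% of all genes). Choroid plexus and ependymal markers summed to 3.68 to 6.71 CPM in WT and 30.0 to 184 CPM in the labelled libraries, of which Ttr, the transthyretin carrier of thyroid hormone, made up 1.11, 0.697 and 0.641 CPM in WT replicates 1 to 3 and 88.2, 182 and 22.7 CPM in labelled replicates 1 to 3 (edgeR adjusted p = 0.077), with Foxj1 at 0. Microglial markers summed to 73.8 to 105 CPM in WT and 56.7 to 95 CPM in the labelled libraries, pericyte markers to 36.1 to 58.7 and 40.2 to 46.9 CPM and smooth muscle markers to 92.2 to 168 and 75.0 to 92.0 CPM. Astrocyte markers summed to 24.7 to 38.7 CPM in WT and 45.8 to 81.5 CPM in the labelled libraries, neuronal markers to 159 to 301 and 178 to 422 CPM, oligodendrocyte markers to 359 to 474 and 381 to 530 CPM, and fibroblast markers, with Dpt at 0, to 1.07 to 4.51 and 0.157 to 4.78 CPM. The part of these markers in the interferon and MHC class II values was not tested.

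Fold changes followed gene length. In 5 classes of equal gene number, from the shortest genes to the longest, the median log2 fold change was −0.21, −0.27, −0.02, 0.17 and 0.43. The higher calls were 8, 4, 5, 9 and 17 in these classes and the lower calls 35, 28, 9, 10 and 4, so long genes were common among the higher and short genes among the lower ones. The median length was 6706 bases for higher genes, 2767.5 for lower genes and 4439 for the rest. The trend was not shared by all labelled libraries: in the longest class, the median deviation from the 6-library mean was 0.33 and 0.37 in labelled replicates 1 and 3 but −0.15 in replicate 2, and in the shortest it was −0.29, −0.30 and 0.33. After the trend was removed per library, 82 genes passed, 24 higher and 58 lower, and 66 of them were among the 129. Sgce, Arf5, Ifi202b, Npw, Gdpd3, Irf7 and Irf1 still passed, at log2 fold changes of −3.04, −3.76, 9.51, 6.18, 4.28, −2.36 and −2.10, while Igtp (edgeR adjusted p = 0.057), Ifit3 (edgeR adjusted p = 0.071), Atf3 (edgeR adjusted p = 0.058), Marveld2 (edgeR adjusted p = 0.052) and Gimap4 (edgeR adjusted p = 0.12) did not.

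**Figure D5:**
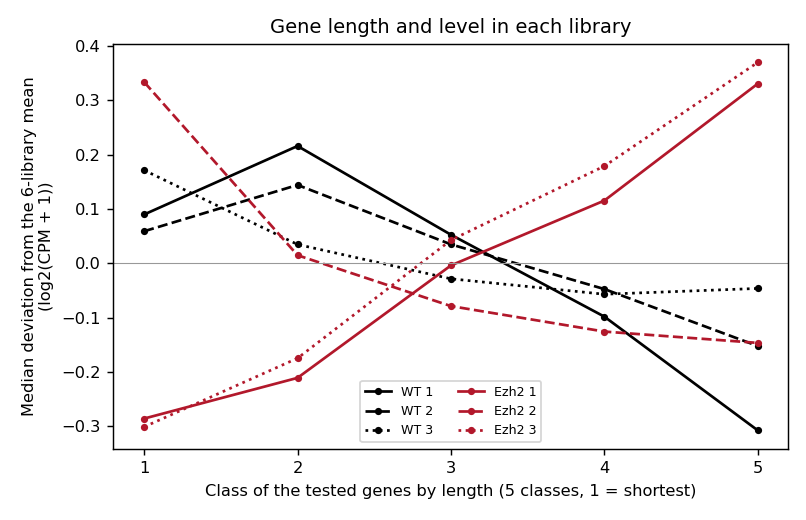
Median deviation of log2(CPM + 1) from the mean of the 6 libraries in 5 classes of the tested genes by length, 1 line per library (black WT, red Ezh2 ECKO-labelled). Labelled replicates 1 and 3 rise from −0.29 and −0.30 in the shortest class to 0.33 and 0.37 in the longest, while labelled replicate 2 falls from 0.33 to −0.15, as the WT lines fall.

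Because the comparisons of all 3 mutant groups use the same WT libraries, the labelled libraries were also set against the mean of the Hdac2 ECKO and beta-catenin GOF groups, which shares no WT library. This contrast was chosen after the data were seen. In it 7 genes passed (0.0557% of those tested), 5 higher (0.0398%) and 2 lower (0.0159%). Ifi202b, Ifi203, Gdpd3, Pmaip1 and Aldh1a1 were higher and Sgce and Uchl1 lower than in the other mutants. Pmaip1 (chromosome 18, 66458533 to 66465565), which encodes the pro-apoptotic protein NOXA, was at 138, 52.9 and 45.1 CPM in WT, 171, 366 and 191 CPM in the Ezh2 ECKO-labelled libraries and 11.9 to 53.7 CPM in the other mutants, and did not pass against WT (log2 fold change 1.63, edgeR adjusted p = 0.087). Uchl1 (chromosome 5, 66676091 to 66687234), a ubiquitin hydrolase best known from neurons, was at 12.0, 10.6 and 17.4 CPM in WT and 2.01, 2.68 and 1.98 CPM in the labelled libraries (log2 fold change −2.59, SE 0.40, edgeR adjusted p = 0.0192). It was at 3.11, 7.31 and 4.92 CPM in the Hdac2 ECKO libraries, also below every WT value, and at 24.9, 12.6 and 19.6 CPM in the beta-catenin GOF libraries. Other falls were shown by further mutant libraries too: Ppp1r15a ran from 11.9 to 49.0 CPM in the other 6 mutant libraries, Socs1 from 0.971 to 3.17 CPM and Irf7 from 14.8 to 40.8 CPM.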

How the data were processed

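RNA counts per gene were analysed for 12 libraries prepared by the SMART-Seq v4 PLUS kit for few cells. Per the submitters' processing notes, FastQC, cutadapt, STAR, featureCounts, DESeq2 and mm10 were used; versions, annotation, strand and filters are not given in the sources used here. The deposited table is titled normalized, but its values were whole-number counts with unequal totals (24781070 to 36109975), and 79.5% to 84% of values from 10 to 50 were even, the pattern of counted mates. They were used as raw counts. Table positions matched GENCODE M21 (GRCm38) for 99.2% of tested genes, with coordinates counted from 1.

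Genes whose mean count was 10 or more were tested with the quasi-likelihood F test of edgeR 4.0.16 (R 4.3.3, TMM scaling), in 1 fit of 4 groups with no block, with Benjamini-Hochberg adjustment over all 12577 genes and a threshold of 0.05. The script was tested on simulated data. SE was the log2 fold change divided by the square root of F, and lowess of gene length with a span of 0.3 was the length correction. Counts of no library pair within a group agreed within sampling noise (chi-square per degree of freedom at least 67.4). The labels do not say that replicates are separate animals, so p-values measure only the spread between these libraries. A count of 3 corresponds to 0.0792 to 0.118 CPM, a floor that covers counting error only and takes counts as independent. Where both mates of a pair were counted, this floor is too low and the folds against it are too high.

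Members and gene lists were chosen with earlier results of these data known. Named were the PRC2 genes, the 12 largest non-overlapping rises and falls, the 5 most abundant calls per direction, genes past the threshold in every fit without 1 library, and list members by p (up to 6 that passed, otherwise up to 3); other names were chosen after their values were seen. Replicate numbers were not used to pair libraries. Alternatives changed the filter, scaling, tool (DESeq2 1.42.0, limma 3.58.1), pseudocount (1 or 0.25), block, length correction and libraries. Xist and genes of the Y chromosome were left out.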

Additional observations from a re-analysis of the deposited data

Results flagged for a closer look

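For 7 genes the Ezh2 ECKO-labelled libraries differed from the mean of the Hdac2 ECKO and beta-catenin GOF libraries by a test of the difference itself (edgeR adjusted p below 0.05). A difference from this mean need not hold for each group: Uchl1 was below WT in the Hdac2 ECKO libraries too. Pmaip1 did not pass against WT. The contrast was chosen after the data were seen. Log2 fold changes were 8.40 for Ifi202b (edgeR adjusted p = 9.48e-06), 2.82 for Ifi203 (edgeR adjusted p = 0.00363) and −2.23 for Sgce (edgeR adjusted p = 0.007), and these 3 also passed in each of 9 fits without 1 of the 9 mutant libraries. Gdpd3, at 3.41 (edgeR adjusted p = 0.007), passed in 8 of these 9 fits. Pmaip1, at 2.84 (edgeR adjusted p = 0.0124), passed in 6, Aldh1a1, at 2.01 (edgeR adjusted p = 0.0234), in 3 and Uchl1, at −2.15 (edgeR adjusted p = 0.0434), in 2. The strains of the groups are not given in the labels and cannot be told apart from the genotypes.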

How the results depend on the processing

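The count of calls varied with every alternative, while the direction of each called gene named by rule did not. Genes past the threshold, higher and lower numbered 129, 43 and 86 as reported, 1367, 556 and 811 with no filter, 219, 80 and 139 at a mean count of at least 50, 76, 28 and 48 with median-ratio scaling, 30, 17 and 13 with library size only, 307, 135 and 172 with quantile normalization under limma, 1280, 618 and 662 with DESeq2, 348, 131 and 217 with limma on log2(CPM + 1), 332, 125 and 207 with a pseudocount of 0.25, 3743, 1850 and 1893 with sample quality weights, 17, 8 and 9 in a fit of the 6 libraries alone, and 82, 24 and 58 with the length trend removed. Without 1 library they ranged from 2 to 2329, 1 to 1018 and 1 to 1311. The share of higher genes was 33.3% as reported, 56.7% with library size only and 49.4% with quality weights. The cause was not tested. Deviations of same-numbered WT and labelled libraries had r = −0.169, −0.029 and 0.007. These values cover 2 of the 4 groups, and whether replicate numbers mark a batch was not tested. With the replicate block 536 genes passed, 176 higher and 360 lower, and with the block and the length correction 576, 254 and 322.

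Against the other mutants, 7 genes as reported became 166 with no filter, 108 with DESeq2, 19 with quantile normalization, 16 and 18 with limma at pseudocounts of 1 and 0.25, 14 with quality weights, 11 with the block and 13 with the block and length correction, and 4 to 9 without 1 library. Of the 39 called genes named by rule, 37 lost the call under some alternative. Among the 79 that had not passed, 56 passed under some alternative and 7 changed sign in places: Eed (0.0063 with the length trend removed, 0.012 with the block too), Vtn (0.011 with the length trend removed), Mbp (2.03 with quality weights), Phf19 (0.32 with quality weights, −0.98 to 0.14 without 1 library), Gad1 (−3.82 to 0.83), Slc1a2 (−0.50 to 3.14) and Stmn2 (−0.13 to 0.68), the last 3 without 1 library. A gene below 3 counts per library was not detectable at this depth.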
